A study of Mus musculus with 3 samples.

Results

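Polycomb group subunits were followed through single-cell transcriptomes of mouse embryonic stem (ES) cells with and without the cohesin subunit RAD21. The 10 genes, chosen by symbol, were Ezh2, Eed, Suz12, Jarid2, Mtf2, Rnf2, Ring1, Cbx7, Pcgf6 and Kdm2b, of 52636 genes in the count tables. Every one of the 10 had counts in each of the 3 replicates and entered the comparison of conditions, in which 17514 genes were tested.

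Polycomb group proteins keep developmental genes silent through a pair of complexes. Polycomb repressive complex 2 (PRC2) methylates histone H3 (the mark H3K27me3), and Polycomb repressive complex 1 (PRC1) ubiquitylates histone H2A (the mark H2AK119ub1) and compacts chromatin. In ES cells both marks lie over the CpG islands of genes for later lineages, such as the Hox clusters and transcription factors of the germ layers, and domains held by PRC1 contact each other over long distances.

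The cells were JM8.N4 ES cells of the C57BL/6N strain, edited so that both the control and the treated arm carried RAD21 fused to an auxin-inducible degron (AID), a tag through which the plant hormone auxin triggers destruction of the protein. Auxin-treated cells received 500 µM indole-3-acetic acid for 6 h, and control cells did not. The medium held serum, leukemia inhibitory factor and the 2 inhibitors known as 2i, without feeder cells. Single cells were sorted into plates and sequenced by Smart-SCRB, a plate method that counts molecules by unique molecular identifiers (UMIs), and each of the 3 replicates had its own control and auxin plates.

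A minimum of 2600 detected genes left cells from 14 of 16 plates. Control cells numbered 168, 371 and 85 and auxin-treated cells 169, 290 and 84 in replicates 1, 2 and 3. The other 2 plates belong to replicate 3, and the deposited annotation and the study's own source values place them in opposite conditions, so they were left out. Counts were summed over the cells of a replicate and condition, which gave 6 sums of 6064936 to 50448320 UMIs, and levels are given as CPM, the UMIs of a gene in every 1000000 UMIs of its sum. The protein is the target of auxin, so Rad21 mRNA, at 19.3 to 45.2 CPM in the 6 sums, checks no label. Control and auxin cells never shared a plate, and p-values measure the spread between these sums. The study's reporting summary calls the sequencing replicates biological, its methods say that the whole procedure was repeated, and the labels name no separate cultures. All sums came from 1 edited line.

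Replicate 1 stands apart from replicates 2 and 3. In it 162 genes stood at 10 CPM or more in both conditions while listed at 0 in every well of replicates 2 and 3, 28 genes showed the opposite, and no gene was at 0 in this way when replicate 2 or replicate 3 was set against the rest. Sox2, an ES cell transcription factor, is one of the 162, with 155 and 97.3 CPM in replicate 1 and no count elsewhere. The other 8 ES cell markers listed had counts in all 6 sums, at levels that differed between replicates. Pou5f1, which encodes the factor OCT4, had 273 and 228 CPM in replicate 1 and 5.81 to 12.5 CPM in replicates 2 and 3. Dppa5a ran from 2118 to 7998 CPM, Tdgf1 from 508 to 642 CPM and Zfp42 from 73.1 to 303 CPM. Replicate 2 was low in Tfcp2l1, a factor of the naive state (2.52 and 4.10 CPM, against 239 to 329 CPM elsewhere), in Nanog (38.9 and 58.6 CPM, against 495 to 563 CPM) and in Esrrb (6.78 and 17.7 CPM, against 61.7 to 125 CPM), and high in Utf1 (174 and 182 CPM, against 9.20 to 52.1 CPM). Markers of other lineages were near 0: summed over their lists, the 6 primitive endoderm genes reached 5.10 to 15.9 CPM, the 6 fibroblast genes 1.46 to 27.0 CPM and the 4 trophectoderm genes 1.20 to 6.77 CPM. The 5 genes of the 2C-like state, which resembles the early embryo, summed to more in auxin than in control in each replicate. The sums were 0.222 and 17.9 CPM in control and auxin of replicate 1, 0.0204 and 0.0793 CPM in replicate 2, and 0.165 and 3.89 CPM in replicate 3. Whether a different way of counting or the cells themselves set the levels of a subunit in replicate 1 cannot be told apart.

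The promoters of Jarid2, Suz12 and Ezh2 are shown because these are the subunits on which the comparisons of conditions, replicates and cell cycle phases turn. The windows run from 250 bases before to 50 after the annotated start, on the gene's strand, from RefSeq on GRCm38.p6, and capitals mark 2 motifs searched on both strands, the E2F core GCGGGAA or TTCCCGC and the CCAAT box, CCAAT or ATTGG.
Jarid2, first of 2 start sites, chr13:44730524-44730823, plus strand: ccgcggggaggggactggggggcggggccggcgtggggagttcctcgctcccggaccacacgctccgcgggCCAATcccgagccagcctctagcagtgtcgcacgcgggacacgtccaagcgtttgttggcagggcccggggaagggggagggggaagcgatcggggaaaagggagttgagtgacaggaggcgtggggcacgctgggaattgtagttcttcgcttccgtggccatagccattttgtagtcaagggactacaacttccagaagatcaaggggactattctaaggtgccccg
Suz12, chr11:79992856-79993155, plus strand: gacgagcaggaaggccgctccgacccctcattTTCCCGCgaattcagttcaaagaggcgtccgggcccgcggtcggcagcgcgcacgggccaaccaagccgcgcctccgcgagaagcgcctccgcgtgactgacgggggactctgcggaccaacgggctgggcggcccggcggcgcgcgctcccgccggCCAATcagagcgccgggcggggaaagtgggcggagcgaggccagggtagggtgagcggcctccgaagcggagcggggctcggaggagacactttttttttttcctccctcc
Ezh2, chr6:47594981-47595280, minus strand: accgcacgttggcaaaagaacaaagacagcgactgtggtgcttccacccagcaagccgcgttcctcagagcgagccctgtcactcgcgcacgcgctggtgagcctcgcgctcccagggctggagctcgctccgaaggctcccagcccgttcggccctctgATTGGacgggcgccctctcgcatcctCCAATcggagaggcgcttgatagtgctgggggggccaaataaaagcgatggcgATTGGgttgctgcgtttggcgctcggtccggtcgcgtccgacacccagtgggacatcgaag

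All 10 subunits had a promoter in that table, with 15 windows in all. In the Jarid2 window the CCAAT box starts at -179 from the start site, in the Suz12 window it starts at -61 and the E2F core at -218, and the Ezh2 window holds 3 CCAAT boxes starting at -90, -64 and -11. Suz12 was the single member with the E2F core, which 4.60% of 32851 promoters hold. The CCAAT box lay in 9 of the 15 windows, from 7 genes, and in 37.4% of all promoters. No member window held the Ets core CCGGAAG or CTTCCGG, found in 8.86% of all promoters, or the NRF1 core GCATGCG or CGCATGC, found in 3.58%. The windows were CpG-rich: 12 of 15 had at least 20 CpG dinucleotides, the upper quartile over all promoters, with a median of 30 against 7. Only the second Mtf2 start site, with 2 CpGs, lay below the median of all promoters, and 2 of the 4 Kdm2b windows overlap each other.

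The genes lie on 9 chromosomes, and the counts of most are open to a neighbour on the other strand, since the sources used here do not state whether counting used strand. Exons of another gene cross those of 7 subunits on the opposite strand, and those of Kdm2b also on its own strand, where Gm44574 reached at most 0.999 CPM. The overlap reaches the last 1000 bases, where a 3′ count would fall, at Rnf2 (with Trmt1l, 40.9 to 86.9 CPM), Cbx7 (with Apobec3, 27.3 to 117 CPM) and Kdm2b (with Rnf34, 51.0 to 66.0 CPM). Jarid2, Ring1 and Pcgf6 overlap no exon of another gene.

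First, the comparison of auxin with control asks whether 6 h of RAD21 loss moved the mRNA of any subunit. None of the 10 passed edgeR's quasi-likelihood test without a replicate block (adjusted p = 1.00 for each, Benjamini-Hochberg), in which 0% of the 17514 genes were called and 33 genes, none of them a subunit, had an unadjusted p under 0.05. DESeq2 without the block called 0 genes and left 66 at that unadjusted level. The fit without the block keeps the differences between replicates in its error, although the replicates pair the sums. In edgeR 0.188% of genes had an unadjusted p under 0.05 without the block, against 5.92% with it. The SE was 0.60 for Mtf2, 0.33 for Ezh2 and 0.38 for Eed without the block, against 0.08, 0.09 and 0.10 with it. With the replicate as a block 3 genes (0.0171%) were called by edgeR and 56 (0.32%) by DESeq2, again no subunit. Within each replicate, auxin stood on one side of control in all 3 replicates for 5 of the 10 subunits, where the background over the genes with counts in all 6 sums was 30.7%. Suz12, Jarid2 and Kdm2b were on the lower side (background 13.9%), Mtf2 and Rnf2 on the higher side (background 16.9%), and for none of the 10 were the 3 control and 3 auxin sums free of overlap (background 2.58%).

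PRC2 has a core of EZH2, the methyltransferase, EED, which reads the mark, and SUZ12, the scaffold. Ezh2 (ENSMUSG00000029687, chr6:47530139-47595341, minus strand) had 494 CPM in control and 480.2 CPM in auxin in replicate 1, 374 and 438 CPM in replicate 2, and 396 and 334 CPM in replicate 3. Replicate 2 was thus higher in auxin and replicates 1 and 3 lower, and the conditions overlap. Its log2 fold change was -0.04 ± 0.33 (SE; edgeR quasi-likelihood, adjusted p = 1.00).

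Eed (ENSMUSG00000030619, chr7:89954654-89980983, minus strand) had no common direction either. Its levels were 178 and 179.8 CPM in replicate 1, 123 and 142 CPM in replicate 2, and 305 and 252 CPM in replicate 3, with a log2 fold change of -0.07 ± 0.38 (SE; edgeR, adjusted p = 1.00). Replicate 3 was the highest in both conditions, and the 2.48-fold span of its control sums exceeded the largest ratio between conditions inside a replicate, 1.21-fold.

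Suz12 (ENSMUSG00000017548, chr11:79993106-80034123, plus strand) had 34.7 CPM in control and 28.6 CPM in auxin in replicate 1, 49.6 and 40.9 CPM in replicate 2, and 85.6 and 67.9 CPM in replicate 3. Auxin was lower each time, by nearly the same ratio, with log2 values of -0.28, -0.28 and -0.33 (mean -0.30 ± 0.03, SD, n = 3). An exact permutation test that flips the sign of each replicate's ratio gave a two-sided p of 0.25, the lowest that 3 replicates allow. The control sums themselves spanned 2.46-fold, so the 2 conditions overlap. Fitted without the block the log2 fold change was -0.31 ± 0.36 (SE; edgeR, adjusted p = 1.00), and with it -0.31 ± 0.12 (unadjusted p = 0.0326, adjusted p = 0.826). With the 2 plates of unsettled condition placed by the study's source values, the unadjusted p with the block was 0.068, and by the deposited annotation 0.0319. It was 0.0908, 0.0813 and 0.0867 without replicates 1, 2 and 3. On single plates the separation was incomplete: in replicate 2 the 4 control plates ran from 45.7 to 54.9 CPM and the 4 auxin plates from 34.1 to 48.0 CPM.

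JARID2 and MTF2 are accessory subunits that bring PRC2 to its sites, JARID2 by binding ubiquitylated H2A and DNA, MTF2 by binding unmethylated CpG islands. Jarid2 (ENSMUSG00000038518, chr13:44729474-44921643, plus strand) had 78.7 CPM in control and 51.9 CPM in auxin in replicate 1, 416 and 351 CPM in replicate 2, and 391 and 325 CPM in replicate 3. Auxin was the lower condition in each replicate. The log2 ratios were -0.60, -0.25 and -0.27 (mean -0.37 ± 0.20, SD, n = 3; p = 0.25 by the same exact test).

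Plate by plate, in replicate 1 of Jarid2 the 2 control plates had 72.8 and 85.4 CPM and the 2 auxin plates 43.7 and 59.2 CPM. The 4 control plates of replicate 2 lay between 399 and 432 CPM and the 4 auxin plates between 321 and 384 CPM. Jarid2 was the single subunit with every auxin plate below every control plate of its own replicate in all 3 replicates, a pattern shown by 135 of 17514 genes (0.771%), and none had every auxin plate above (1.15%). Replicate 3 enters with 1 plate in each condition, 391 CPM in control and 325 CPM in auxin, and the pattern breaks there when the 2 plates of unsettled condition are placed by the study's source values (control 391 and 332 CPM, auxin 325 and 438 CPM). Placed by the deposited annotation, the pattern holds (control 391 and 438 CPM, auxin 325 and 332 CPM). Replicate 1 taken alone had Jarid2 below (background 13.3%) and Ring1 above (17.8%), and replicate 2 taken alone had Jarid2 and Kdm2b below (5.78%) and no subunit above (7.47%).

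In the fit without the block Jarid2's log2 fold change was -0.30 ± 0.72 (SE; edgeR, adjusted p = 1.00). With the block it was -0.38 ± 0.10 (unadjusted p = 0.00582, adjusted p = 0.697), and DESeq2 with the block gave an adjusted p of 0.136, so no fit called it. Of the 10 subunits, Suz12 and Jarid2 had an unadjusted p under 0.05 with the block, in edgeR (background 5.92%) and in DESeq2 (background 5.29%). The 2 plates of unsettled condition had 438 and 332 CPM. The deposited annotation calls the first control and the second auxin, under which the blocked edgeR log2 fold change was -0.41 (unadjusted p = 0.00233). The study's source values say the reverse, under which it was -0.27 (unadjusted p = 0.0701). Without replicates 1, 2 and 3 it was -0.25, -0.43 and -0.45 (unadjusted p = 0.0457, 0.00443 and 0.00792). None of these passed after adjustment.

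Cell cycle phase moved with the conditions in opposite directions: the share of cells assigned to G2/M was higher in auxin than in control for replicate 1 (51.5 against 38.7%) and replicate 3 (61.9 against 49.4%) and lower for replicate 2 (43.1 against 62.8%). Inside S phase Jarid2 had 85.4 and 55.0 CPM, 473 and 333 CPM, and 378 and 348 CPM in control and auxin of replicates 1, 2 and 3. In G2/M the pairs were 65.8 and 43.8 CPM, 390.1 and 365 CPM, and 399 and 317 CPM. Auxin was thus the lower condition in both phases of every replicate, in cells already part of the sums above. The share of all genes with this pattern was not counted. G1 was not compared, and its share went from 36.9 to 16.6%, from 6.47 to 21.4% and from 7.06 to 5.95% in replicates 1, 2 and 3. A part of phase in the difference was not tested. Suz12 was lower in auxin in every replicate in G2/M (mean log2 ratio -0.35 ± 0.10, SD, n = 3) and not in S, where replicate 1 had 35.6 CPM in control and 42.0 CPM in auxin.

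Mtf2 (ENSMUSG00000029267, chr5:108065674-108109004, plus strand) had 414 and 429.98 CPM in replicate 1, 205 and 235 CPM in replicate 2, and 776 and 869.5 CPM in replicate 3. Auxin was higher each time, with log2 ratios of 0.06, 0.20 and 0.16, a difference much smaller than the 3.79-fold span of the control sums. The fit gave a log2 fold change of 0.13 ± 0.60 (SE; edgeR, adjusted p = 1.00), and with the block 0.13 ± 0.08 (unadjusted p = 0.144, adjusted p = 0.865).

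PRC1 is built on the E3 ligases RNF2 (RING1B) and RING1 (RING1A), of which RNF2 is the main one in ES cells. Rnf2 (ENSMUSG00000026484, chr1:151458004-151500955, minus strand) had the smallest span of the 10 over the 6 sums. Its levels were 73.4 and 78.3 CPM in replicate 1, 67.9 and 75.0 CPM in replicate 2, and 61.5 and 68.9 CPM in replicate 3, 1.27-fold from lowest to highest, while over the control sums alone Pcgf6 spanned less (1.16-fold against 1.19-fold). Auxin was slightly higher each time, by 0.13 ± 0.04 on the log2 scale (SD, n = 3; p = 0.25 by the same exact test), and the fit gave 0.11 ± 0.27 (SE; edgeR, adjusted p = 1.00). The plates within 1 replicate and condition differed by up to 1.46-fold, more than the conditions did.

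Ring1 (ENSMUSG00000024325, chr17:34020792-34024680, minus strand) was the least counted subunit. It had 4.61 and 7.49 CPM in replicate 1, 5.26 and 4.26 CPM in replicate 2, and 5.94 and 5.53 CPM in replicate 3, which rest on 36 to 258 UMIs per sum. Replicate 1 had the higher value in auxin and the other two in control, and the log2 fold change was 0.17 ± 0.50 (SE; edgeR, adjusted p = 1.00).

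CBX7 is the chromodomain subunit through which canonical PRC1 of ES cells reads H3K27me3. Cbx7 (ENSMUSG00000053411, chr15:79915807-79971119, minus strand) had 37.6 and 44.6 CPM in replicate 1, 109.6 and 101 CPM in replicate 2, and 60.5 and 80.2 CPM in replicate 3. Replicates 1 and 3 were higher in auxin and replicate 2 was lower, with a log2 fold change of 0.11 ± 0.37 (SE; edgeR, adjusted p = 1.00).

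PCGF6 and KDM2B belong to variant PRC1, which needs no H3K27me3: PCGF6 defines the form that acts at germ-line genes, and KDM2B brings the PCGF1 form to unmethylated CpG islands. Pcgf6 (ENSMUSG00000025050, chr19:47033617-47050906, minus strand) had 85.6 and 99.8 CPM in replicate 1, 99.5 and 102.6 CPM in replicate 2, and 86.6 and 73.3 CPM in replicate 3, with no common direction and a log2 fold change of 0.02 ± 0.26 (SE; edgeR, adjusted p = 1.00). Kdm2b (ENSMUSG00000029475, chr5:122870665-122989823, minus strand) had 53.0 and 46.8 CPM in replicate 1, 88.2 and 75.4 CPM in replicate 2, and 78.2 and 75.1 CPM in replicate 3. It was lower in auxin each time, by 0.15 ± 0.09 on the log2 scale as a mean (SD, n = 3; p = 0.25 by the same exact test), and the fit gave -0.17 ± 0.20 (SE; edgeR, adjusted p = 1.00). In replicate 2 its 4 control plates, 81.0 to 93.6 CPM, lay above its 4 auxin plates, 73.8 to 76.6 CPM, while in replicate 1 the plates overlapped.

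**Figure D1:**
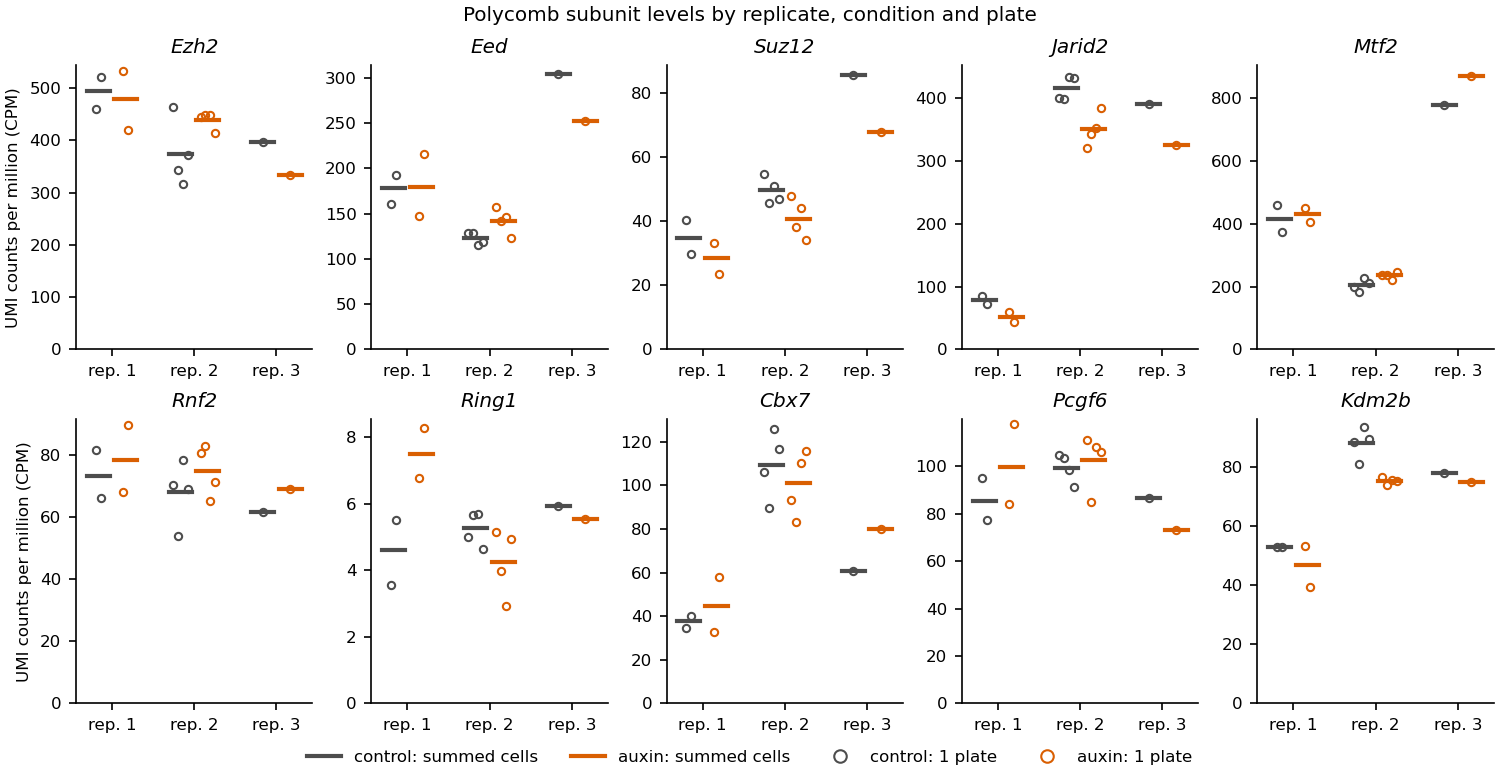
Level of each Polycomb subunit in CPM (vertical axes, linear from 0) in replicates 1, 2 and 3. Bars are the summed cells of a condition (grey control, orange auxin) and circles single plates; the bars of Jarid2 step from at most 78.7 CPM in replicate 1 to at least 325 CPM in the others, a larger gap than that between its conditions.

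**Figure D2:**
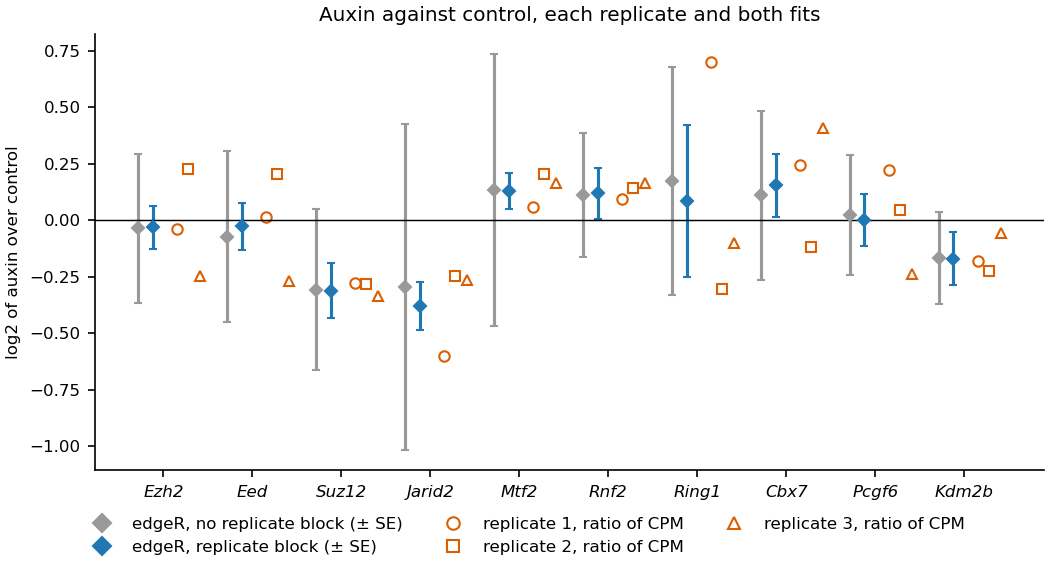
Difference between auxin and control on the log2 scale for each subunit. Grey and blue diamonds are the edgeR estimates without and with the replicate block (bars ± 1 SE), and open symbols the ratio of CPM in each replicate; Suz12, Jarid2 and Kdm2b have all 3 ratios below 0, Mtf2 and Rnf2 all 3 above.

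Counted per cell and not per UMI, auxin-treated cells held more UMIs, and over the genes with counts in all 6 sums the median log2 ratio of the mean UMI per cell was 0.24. The median of the 10 subunits on that scale was 0.21, and 8 of the 10 were above 0. Suz12 and Jarid2 stayed below 0 there (-0.09 and -0.16). Kdm2b turned from below to above 0 (0.06), by no more than the shift common to all genes, whose median was 0.03 on CPM.

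Next, the replicates were compared, because replicate 2 held more cells, deeper libraries and the low naive markers given above. No subunit stood apart in replicate 2 by 2-fold from both other replicates in both conditions (background 4.52% higher and 3.92% lower). Mtf2 came nearest, below replicate 3 by 3.79-fold in control and 3.70-fold in auxin, and below replicate 1 by 2.02-fold and 1.83-fold. With the TMM scaling that the edgeR fit uses, Mtf2 passed the 2-fold rule on the low side, when 8.76% of genes passed in either direction. At a fold of 1.5 it was the single subunit apart, on the low side (background 6.15%), and none was apart on the high side (8.67%). Cbx7 was highest in replicate 2, by 2.91-fold and 2.27-fold over replicate 1 and by 1.81-fold and 1.26-fold over replicate 3. On mean UMI per cell, where replicate 2 gains from its depth, Cbx7 and Kdm2b passed the 2-fold rule on the high side, when 20.5% of genes passed in either direction.

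Jarid2 stood apart in replicate 1. It was 5.28-fold and 4.96-fold lower there than in replicates 2 and 3 in control, and 6.75-fold and 6.26-fold lower in auxin. This was the single subunit of 10 to pass the 2-fold rule for replicate 1 on the low side, a side on which 24.3% of all genes passed, and none passed on the high side (2.24%). In replicate 3 none stood apart (2.76% of genes higher, 0.959% lower).

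Over the 3 control sums the subunits spanned a median of 2.06-fold from lowest to highest, and 5 of 10 spanned over 2-fold, against a median of 1.80-fold and 41.3% for the 9396 genes averaging 1 count per cell or more. Ezh2, Rnf2, Ring1 and Pcgf6 stayed within 1.32-fold, Kdm2b spanned 1.66-fold, and Jarid2 and Mtf2 spanned the most, 5.28-fold and 3.79-fold. The order of replicates was not shared: replicate 3 was highest in control for Eed, Suz12, Mtf2 and Ring1, replicate 2 for Jarid2, Cbx7, Pcgf6 and Kdm2b, and replicate 1 for Ezh2 and Rnf2.

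**Figure D3:**
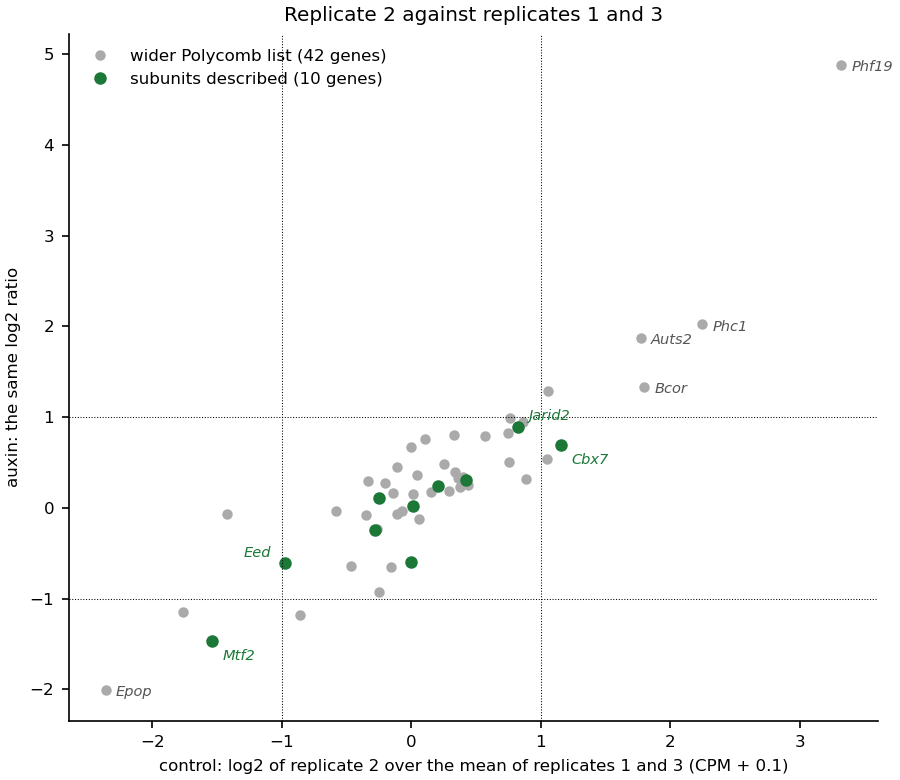
Replicate 2 against the mean of replicates 1 and 3, as log2 of CPM + 0.1, in control (horizontal axis) and auxin (vertical axis). Green points are the 10 subunits and grey points 42 other Polycomb genes; dotted lines mark 2-fold. Mtf2 is the subunit farthest down and Cbx7 the farthest right, and Phc1, Auts2, Bcor, Phf19 and Epop lie outside all of them.

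The other genes of the pathway gave a like picture between conditions. Of 46 further Polycomb and opposing genes, 43 passed the filter on low counts and 0 were called by edgeR in either direction, with none at an unadjusted p under 0.05, and DESeq2 called 0 with or without the block. Their median log2 fold change was -0.06, against -0.01 for the 10 subunits and -0.001 over all genes tested. With the block 2 of the 43 had an unadjusted p under 0.05 (background 5.92%), Bcor and Tfdp1, both on the higher side. Bcor, a scaffold of the PCGF1 form of PRC1, had 8.32 and 17.6 CPM, 32.5 and 42.7 CPM, and 10.2 and 16.2 CPM in control and auxin of replicates 1, 2 and 3 (edgeR with the block, adjusted p = 0.697). Tfdp1, the E2F partner found with PCGF6, had 151 and 215 CPM, 149.9 and 171 CPM, and 137 and 157 CPM (adjusted p = 0.771).

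Of the 33 genes of this list with at least 1 count per cell, 10 had auxin on one side of control in all 3 replicates, 9 higher and 1 lower, where the background over all genes with that many counts was 19.5% higher and 12.4% lower. The lower one was Rybp, which stabilizes variant PRC1, with a mean log2 ratio of -0.24 ± 0.19 (SD, n = 3). On the higher side, the 4 with the largest log2 fold changes in the fit were Bcor (mean log2 ratio 0.71 ± 0.34), Cbx2, a chromodomain subunit (0.35 ± 0.33), Tfdp1 (0.30 ± 0.18) and Bap1, the H2A deubiquitinase (0.29 ± 0.14). The other 5 on that side had mean log2 ratios of 0.32 ± 0.25 (Lcor, a PRC2 accessory subunit), 0.19 ± 0.17 (Cbx3), 0.18 ± 0.06 (Usp16), 0.15 ± 0.10 (Usp7) and 0.09 ± 0.04 (Rbbp4). None of these genes passed the test.

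In replicate 2, 4 of the 43 genes of the wider list stood apart on the high side and 2 on the low side, beside 4.52% and 3.92% of all genes tested, a description only, since a gene can reach the filter on low counts through the replicates where it is high. Phc1, a PRC1 subunit that polymerizes, had 356 and 316 CPM in replicate 2 and 73.4 to 81.1 CPM in the other replicates. Epop, an accessory subunit of PRC2, was low, with 16.8 and 17.4 CPM against 42.0 to 124 CPM. Auts2, Bcor and Phf19 were the others on the high side, Phf19 with 206 and 255 UMIs in replicate 2, none in replicate 1, and 4 and 1 in replicate 3. Of 27 known Polycomb target genes, 14 passed the filter and none was called. These 14 include genes that reached the filter through some replicates only, such as Gsc with 1 and 17 UMIs in the sums of replicate 2. With the block 3 of the 14 had an unadjusted p under 0.05 (background 5.92%), Hoxa7 and Sox17 on the higher side and Eomes on the lower. Hoxa7 had 46.4 and 57.8 CPM in replicate 1, 1.92 and 2.89 CPM in replicate 2, and 12.5 and 40.5 CPM in replicate 3, higher in auxin each time (edgeR with the block, unadjusted p = 0.0151, adjusted p = 0.755). Sox17, an endoderm factor, had 2.00 and 4.94 CPM, 0.510 and 1.23 CPM, and 4.12 and 8.82 CPM (unadjusted p = 0.0127, adjusted p = 0.739). These values rest on 25 to 95 UMIs per sum. Among the 14 targets, 3 were higher in auxin in all 3 replicates and 3 lower (backgrounds 16.9% and 13.9%). The lower ones include other endoderm factors, so Sox17 does not stand for that lineage. Eomes, a factor of mesendoderm and trophoblast, had 19.0 and 8.22 CPM, 1.73 and 0.0595 CPM, and 3.96 and 2.09 CPM, lower in auxin each time (unadjusted p = 0.0118, adjusted p = 0.739; DESeq2 with the block, adjusted p = 0.0795).

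Across the 14 plates, the closest gene by Pearson's r of log2(CPM + 1) was sought among the 9396 genes with at least 1 count per cell, for the 9 subunits that reach that level and not for Ring1, as a description over plates that share 3 replicates. For Jarid2 it was Arhgap26 (r = 0.99), for Mtf2 Obox6 (r = 0.98), for Cbx7 Nusap1 (r = 0.96) and for Suz12 Mpdu1 (r = 0.95). These 4 subunits had the largest range over plates, 1.82 to 3.28 on the log2 scale.

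Detection in single cells was then counted as the share of cells with at least 1 UMI. With all UMIs, Ezh2 was found in 96.9 to 100% of cells and Eed in 91.0 to 100%, whereas Ring1 was found in 22.6 to 34.3%. In replicate 2 the share of positive cells was lower in auxin for Eed (91.0 against 95.4%) and Mtf2 (89.3 against 93.3%), both of which had the higher CPM there. Suz12 was positive in 48.2, 74.9 and 88.2% of control cells of replicates 1, 2 and 3, and in 47.9, 74.1 and 76.2% of auxin-treated cells. Jarid2 was positive in 81.5 and 72.2% in replicate 1 and in 99.7 to 100% in replicates 2 and 3. Replicate 3, the shallowest, thus had the largest share of Suz12-positive control cells (75 of 85, 95% exact binomial interval 79.4 to 94.2%), above that of replicate 1 (81 of 168, 40.5 to 56.0%). Intervals cover counting error only.

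Between conditions the share moved the same way in all 3 replicates for 3 subunits. Rnf2 was positive in more auxin-treated cells, by 4.84, 5.04 and 9.22 percentage points (background 17.5%). Suz12 was positive in fewer, by values from -0.29 to -12.0 points, and Kdm2b too, by values from -3.40 to -10.9 points (background 9.93%). For each the exact sign flips over replicates gave p = 0.25, the lowest possible. Median depth was higher in auxin in each replicate, at 113617 against 104442.5 UMIs, 187088 against 143842, and 75376.5 against 72317.

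Thinning every cell to 20000 UMIs, which left out 27 cells below that depth, removed the difference in depth. Rnf2 remained higher in auxin in all 3 replicates (0.81, 9.76 and 7.04 points; background 14%), and Kdm2b lower (-7.99, -4.60 and -3.60 points; background 11.6%). Eed (-1.09, -0.23 and -0.15 points) and Jarid2 (-7.43, -0.53 and -1.27 points) were also lower in all 3 replicates at this depth. Kdm2b was lower in each replicate at 50000 UMIs as well (mean -5.82 ± 1.36 points, SD, n = 3), while Rnf2 was not. Suz12 went from 31.0 to 34.9% in replicate 1, from 46.6 to 37.5% in replicate 2 and from 75 to 55.7% in replicate 3, so the order no longer held in replicate 1. At 50000 UMIs Suz12 was again lower in auxin in all 3 replicates, by values of -3.63, -4.75 and -23.1 points. In unthinned cells with over 4000 detected genes it went from 49.1 to 49.4%, from 76.1 to 78.9% and from 89.3 to 78.2%, higher in auxin in 2 of 3 replicates. Jarid2 stood near saturation in replicates 2 and 3, with 98.7 to 100% of thinned cells positive.

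**Figure D4:**
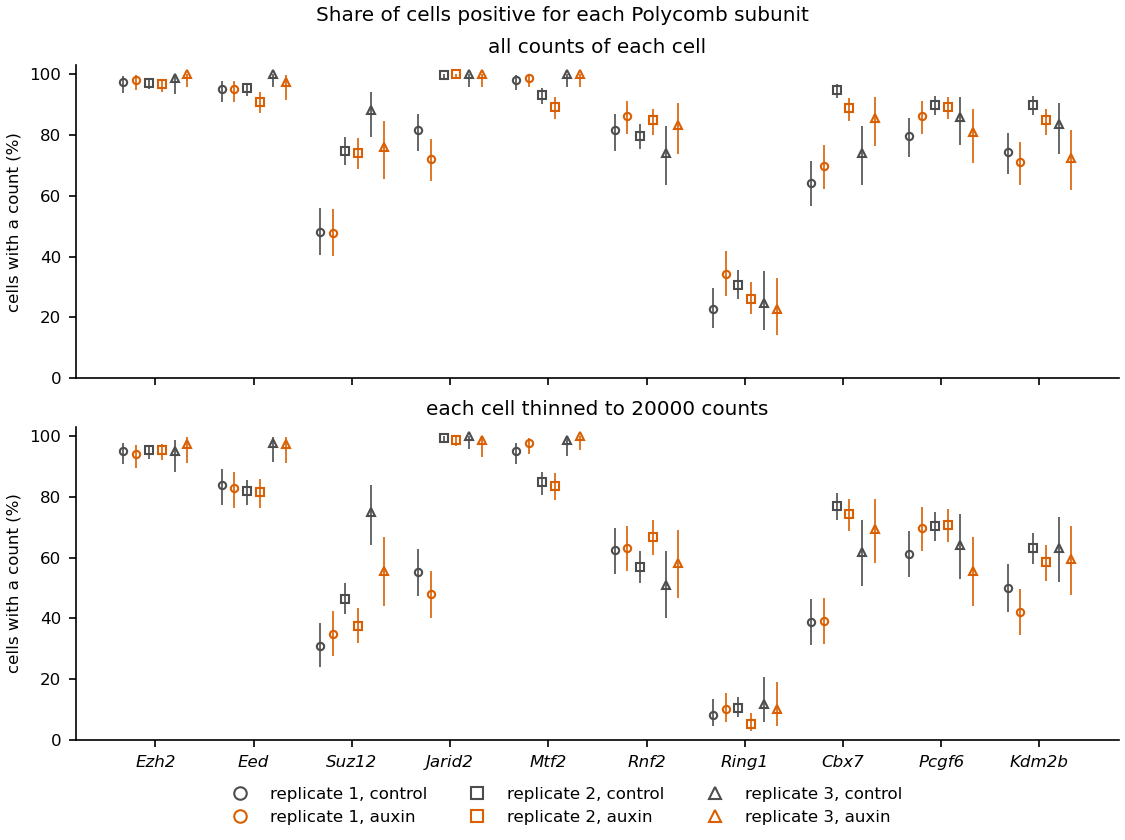
Share of cells with at least 1 count of each subunit (percent, vertical axis), by replicate (symbol) and condition (grey control, orange auxin), with 95% exact binomial intervals, for all counts (top) and after thinning each cell to 20000 UMIs (bottom). Ring1 stays at 34.3% or less in every sum, and Suz12 in thinned control cells ranges from 31.0% in replicate 1 to 75% in replicate 3.

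Cell-to-cell spread, measured as variance over mean of the thinned counts, was 1 or more for 9 of the 10 subunits in every sum, where 1 is the value of pure sampling. It ran from 4.01 to 7.16 for Mtf2, from 2.81 to 7.18 for Ezh2, and from 0.892 to 1.46 for Ring1. Suz12, with a mean of 0.639 to 1.92 counts per thinned cell, ran from 1.97 to 3.69, and Rnf2, with a mean of 1.06 to 1.70, from 1.63 to 2.44. The ratio grows with the mean, so these values describe each gene and do not order them.

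Within single cells the correlation among subunits averaged close to 0 once depth was divided out. The mean Spearman correlation of CPM over the 45 pairs was 0.016, 0.007 and -0.006 for replicates 1, 2 and 3 in control cells, and 0.002, 0.024 and 0.035 in auxin-treated cells. The difference of 0.015 ± 0.028 over the 45 pairs (SD, n = 3; p = 0.5 by the exact sign flips) was smaller than its spread, beside a difference of 0.009 over all these gene pairs. Single pairs ran from -0.28 (Jarid2 with Cbx7 in auxin-treated cells of replicate 3) to 0.31 (Ezh2 with Mtf2 in control cells of replicate 3). By Pearson's r of log2(CPM + 1) auxin was higher in 3 of 3 replicates, by 0.031 ± 0.025 (SD, n = 3; p = 0.25 by the exact sign flips, the lowest possible), beside 0.015 ± 0.015 over all gene pairs, also higher in 3 of 3. On raw counts, in which depth is shared by all genes of a cell, the means were 0.138, 0.291 and 0.118 in control cells and 0.124, 0.310 and 0.278 in auxin-treated cells. The means over all gene pairs were lower on that scale, at 0.075, 0.179 and 0.062 in control cells and 0.078, 0.207 and 0.143 in auxin-treated cells. Those genes were not matched to the subunits for count.

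Finally, the cell cycle phase of each cell was assigned with cyclone from 667 marker genes, and counts were summed by phase over both conditions. Replicate 3 had only 11 G1 cells, so S and G2/M were compared. G2/M lay on one side of S in all 3 replicates for 6 subunits (background 31.7%). One of these is Ezh2, itself among the marker genes, with 488 and 522 CPM, 378 and 428 CPM, and 356 and 369 CPM in S and G2/M of replicates 1, 2 and 3; its order was in part set by the assignment.

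The 5 others are no markers. Eed, Suz12, Jarid2 and Pcgf6 were lower in G2/M (background 17.9%), and Ring1 was higher (background 13.9%), by as little as 0.004 on the log2 scale in replicate 2. Within single conditions these orders did not all hold. Of the 6 sums, Ezh2 was higher in G2/M in 6 of 6 (backgrounds over all 6 sums 3.44% lower and 3.29% higher). Mtf2, Rnf2 and Kdm2b, which kept no one direction when both conditions were summed, were lower in only 1 each. Eed, Suz12 and Pcgf6 were lower in 5 each and Jarid2 in 4, counts whose share over all genes was not taken. The exceptions were replicate 1 in auxin for Eed and Pcgf6, replicate 3 in control for Suz12 (78.9 CPM in S and 80.4 CPM in G2/M), and replicate 3 in control and replicate 2 in auxin for Jarid2 (378 and 399 CPM, and 333 and 365 CPM). Ring1 was lower in G2/M in all 3 control sums and higher in all 3 auxin sums, opposite sides that 2.47% of genes showed, so its pooled order holds in auxin and not in control. With both conditions summed, Suz12 had 39.1 and 26.1 CPM, 51.4 and 40.1 CPM, and 76.6 and 72.8 CPM (mean log2 ratio -0.34 ± 0.25, SD, n = 3). Eed had 178.1 and 177.9 CPM, 146 and 119 CPM, and 340 and 247 CPM (-0.25 ± 0.23). Pcgf6 had the smallest spread of the 5, -0.14 ± 0.09. By exact sign flips p was 0.25 for each, the lowest possible. With phases assigned on thinned cells Suz12 was lower in G2/M by a mean of -0.43 ± 0.08, Jarid2 no longer kept one direction, and Rnf2 was higher in G2/M in all 3 replicates (0.19, 0.006 and 0.20).

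**Figure D5:**
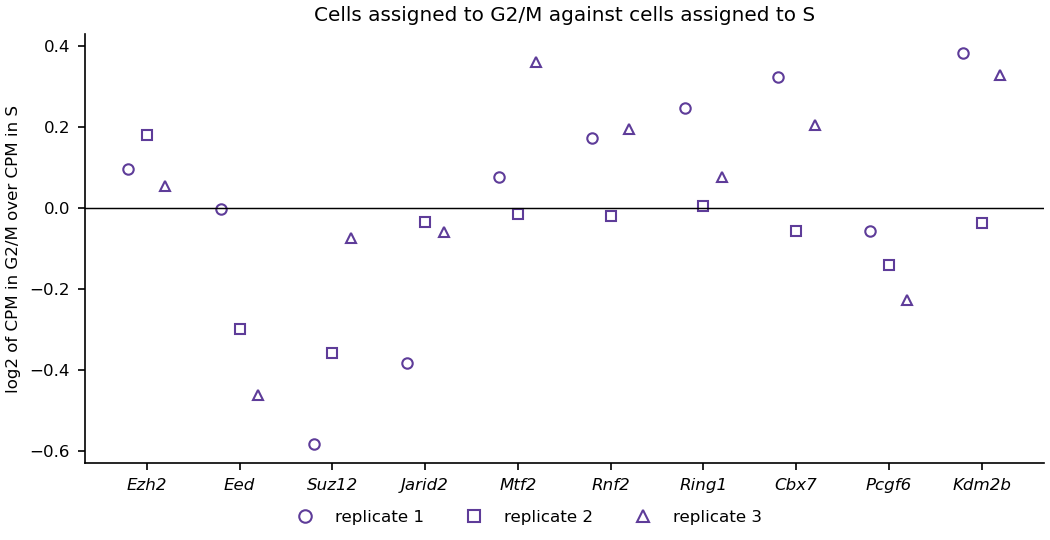
Log2 ratio of CPM in cells assigned to G2/M over CPM in cells assigned to S (vertical axis) for each subunit and replicate, both conditions summed. Suz12, Eed, Jarid2 and Pcgf6 have all 3 values below 0, and Ezh2, a marker gene of the assignment, has all 3 above 0.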

How the data were processed

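The deposited tables hold raw UMI counts per gene and well, which the authors made from reads aligned to mm10 (per the labels); aligner, counter and strand setting are not given in the sources used here. Per the file headers, companion tables give detected genes, summed counts and the percent of ERCC spike-in counts per well, the condition of each well, and, as a fraction per plate, the sequencing saturation the authors computed. Replicate 1's annotation words RAD21_positive and RAD21_negative were read as control and auxin. The subunits and gene lists were chosen with earlier results of these data known.

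Wells with more than 2600 detected genes were kept and summed per replicate and condition. edgeR 4.0.16 (TMM, quasi-likelihood test, filterByExpr, Benjamini-Hochberg, threshold 0.05) was fitted over all genes without a block, and DESeq2 1.42.0, a replicate block and other filters were alternatives. The edgeR test reports no SE. The SE printed with it is the absolute log2 fold change over the square root of the test's F statistic. The replicate numbers pair the sums: deviations of control and auxin from their group means correlated at 0.94, 0.91 and 0.84 over 9396 genes. Further steps were thinning (seed 1), exact sign-flip tests, and cyclone phases (scran 1.30.0). The edgeR fits were also run on simulated counts with known changes, and that outcome is not given here. Coordinates of genes are from GENCODE M21 on mm10, in which 99.6% of gene IDs were found. Named genes of the wider list were those past the threshold, or otherwise the 4 highest and 4 lowest by edgeR's log2 fold change with 1 count per cell and one direction; of those apart in replicate 2, the 4 highest and 4 lowest; and the closest gene by Pearson's r for the 4 subunits with the largest range over plates. Epop, Auts2, Lcor, Cbx3, Sox17 and Eomes were named after their values were seen. Cells are named by plate and well in the files, which hold no barcodes. A few genes of the lists enter the counts and are not reported here by name. The 2 unsettled plates of replicate 3 (168 cells) were left out.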

Additional observations from a re-analysis of the deposited data

Results flagged for a closer look

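Within replicate 2, the lowest of the 4 auxin plates had 413.8 CPM of Ezh2, while the other 3 lay between 444.7 and 449.4 CPM, a gap of 0.867 of the plates' whole range. That gap is past Dixon's 95% critical value for 4 samples. It was the single case among 20 groups of 4 plates (10 subunits in 2 conditions of replicate 2), and chance gives about 1 in 20.

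Ring1 ran from S to G2/M in opposite directions in the conditions. Its log2 ratio of CPM in G2/M over S averaged -0.32 ± 0.12 in control (SD, n = 3) and 0.55 ± 0.47 in auxin, with every control sum below 0 and every auxin sum above 0. The phase sums hold few counts of Ring1, 17 to 173 UMIs in control and 5 to 104 UMIs in auxin, and the difference between the conditions was not tested.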

How the results depend on the processing

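Under 19 alternatives to each subunit's fit (other normalizations, filters, plate placements, scalings, and leaving out replicates, with and without the replicate block), the direction held in 169 of 190 cases, in all 19 for Suz12, Jarid2, Mtf2 and Rnf2, and no subunit and no gene of the wider Polycomb list passed the threshold in the 17 that have a test (the scalings per cell and per ERCC count have none). The lowest adjusted p of a subunit was 0.136 (Jarid2, DESeq2 with replicate block). Directions turned as follows, in log2 units. With replicate 3 as in the figure's source values Ezh2 was 0.0111 (0.028 with the block), and Eed 0.0242 with the block. Leaving out one replicate at a time gave -0.13 to 0.0306 for Ezh2, -0.14 to 0.0501 for Eed, -0.19 to 0.35 for Ring1, -0.0318 to 0.33 for Cbx7 and -0.0814 to 0.11 for Pcgf6, and with the block 0.0592 for Ezh2 and 0.0754 for Eed without replicate 3, -0.21 for Ring1 and -0.0903 for Pcgf6 without replicate 1, and -0.00412 for Pcgf6 without replicate 2. DESeq2 with the block gave -0.0157 for Pcgf6. On mean UMI per cell Ezh2 was 0.19, Eed 0.20 and Kdm2b 0.0585, and per ERCC count 0.15, 0.16 and 0.0188. These 2 scalings move all genes alike, with a median log2 ratio of 0.03 on CPM, 0.24 per cell and 0.20 per ERCC count. Directions under them are therefore no separate check of a subunit. The cause was not tested.

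The count of genes called, 0, became 3 with the replicate block in edgeR, 56 with the block in DESeq2, 3 with the block under the deposited annotation, and 14, 32 and 2 with the block and without replicates 1, 2 and 3, and was 0 with the block under the figure's source values. Subunits apart in replicate 2, 0, became 1 (Mtf2) with TMM scaling or a fold of 1.5 and 2 on mean UMI per cell. The shares of all genes apart in either direction were 8.76%, 14.8% and 20.5%. Subunits with one direction of the positive share, 3, became 2 in cells with over 4000 detected genes and 4 in cells thinned to 20000 UMIs, and ranged from 3 to 6 with a replicate left out, and those with one direction between phases, 6, from 6 to 10. With a replicate left out the rule asks for 2 replicates and not 3, so those counts cannot be set against the others. Their share over all genes was not counted, nor that for cells with over 4000 detected genes. The coexpression difference was 0.055 on raw counts. Placements of replicate 3, its smaller number of cells, and the use of 1 line limit every comparison. The block fits of replicate 3's unsettled plates and those with a replicate left out were chosen after seeing the data. So were the scalings per cell and per ERCC count.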
